A study of Mus musculus with 12 samples.

Results

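The genes described here are the immunoglobulin genes of a bulk mRNA sequencing study of mouse lung tumours and normal lung, 173 of the 36254 genes in the authors' deposited table. The members were chosen by name and by summed raw count, which is described here and not tested. A row was a member if its name marked it as a heavy (Ighv), kappa (Igkv) or lambda (Iglv) variable segment, a constant gene or Jchain, and if its raw count summed to 50 or more over the 12 libraries. The members were 80 heavy V segments, 78 kappa V segments, 3 lambda V segments, 7 heavy-chain constant genes, the kappa constant gene Igkc, 3 lambda constant genes and Jchain. By the table's annotation, 87 lay on chromosome 12 (heavy chain), 79 on chromosome 6 (kappa), 6 on chromosome 16 (lambda) and Jchain on chromosome 5. Another 53 rows with such names fell under the minimum, 2 of them with no count at all. Igkv4-90 (summed count 51), Ighv3-1 (52) and Ighv8-5 (52) lay just inside it, and Ighv1-47 (48), Ighv12-3 (45) and Ighv1-20 (39) just outside. Ighe, the IgE constant gene, had a summed count of 34 and was not a member. The minimum draws on all groups: 141 members reached 50 counts in the 9 tumour libraries alone and 148 in the 3 Control libraries alone.

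Each group had 3 libraries, and the sample names give C57 for all mice. Taurine and Proline are lung tumours grown orthotopically, that is, inside the lung, in mice given the amino acid of that name. Model is the same kind of tumour without either amino acid, and Control is normal lung according to the series' description, although all 12 samples carry lung tumour as tissue label. The sources used here give no tumour cell line, no dose or route of the amino acids, no time of sampling and no age of the animals. Nothing in the labels says that the 3 libraries of a group come from separate animals, so p-values measure only the spread between these libraries, which may be technical.

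An antibody is a pair of heavy and a pair of light chains, and each B cell makes its chains by joining a variable segment to short further segments and to a constant gene. The heavy-chain constant gene sets the class: IgM and IgD on B cells that have not switched, and IgG, IgA or IgE after class switching, with IgA the main class of mucosal secretions. Plasma cells, the secreting end stage of the B lineage, hold far more immunoglobulin mRNA per cell than other B cells. In bulk tissue, fewer cells of a type and less RNA per cell cannot be told apart.

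The libraries held 56542745 to 69456490 counts. Immunoglobulin members took 0.00484% to 0.0543% of the counts in the 9 tumour libraries and 0.103% to 0.132% in Control. Sftpc, a surfactant gene that marks alveolar type 2 cells of normal lung, had 0 to 22.9 CPM (counts scaled to library size by TMM) in 8 tumour libraries and 324 CPM in the ninth, Proline 1, which was 2.02% of the Control mean. Control had 14888 to 17097 CPM of Sftpc. The liver gene Alb had 76.1 CPM in Model 1, 95.5 CPM in Model 2, 20.1 CPM in Control 1 and 16.9 CPM in Control 2, and at most 0.582 CPM in the other libraries. The summed level of 12 T cell genes was 29.9, 13.8 and 15.5 CPM in Taurine, 103, 65.0 and 27.3 CPM in Proline, 64.2, 31.7 and 26.1 CPM in Model and 189, 199 and 220.1 CPM in Control. The part of these other cells in the results was not tested.

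The first comparison, Model against Control, sets the tumour without amino acid against normal lung. Summed immunoglobulin transcripts were lower in Model, and the genes differed in how far. IgD and IgA transcripts had the lowest fold changes among the constant genes, those of J chain and of the kappa and lambda constant genes also fell, and IgM and IgG transcripts did not pass the test. The summed level of all members was 210.2, 48.7 and 86.6 CPM in Taurine, 347, 539 and 119 CPM in Proline, 345, 320.4 and 175 CPM in Model and 1318, 1056 and 1375 CPM in Control. All 9 tumour libraries lay below the lowest Control library, and Taurine 2 was the lowest of all. The mean was 280.1 ± 91.8 CPM for Model and 1249.6 ± 169.9 CPM for Control (SD, n = 3 each), 4.46-fold lower in Model, a log2 ratio of −2.16. Without Model 1 and Model 2, the Model libraries with liver transcripts, the log2 ratio was −2.84. That ratio rests on Model 3 alone, the lowest Model library, and Control 1 and Control 2, which also held Alb, were kept.

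**Figure D1:**
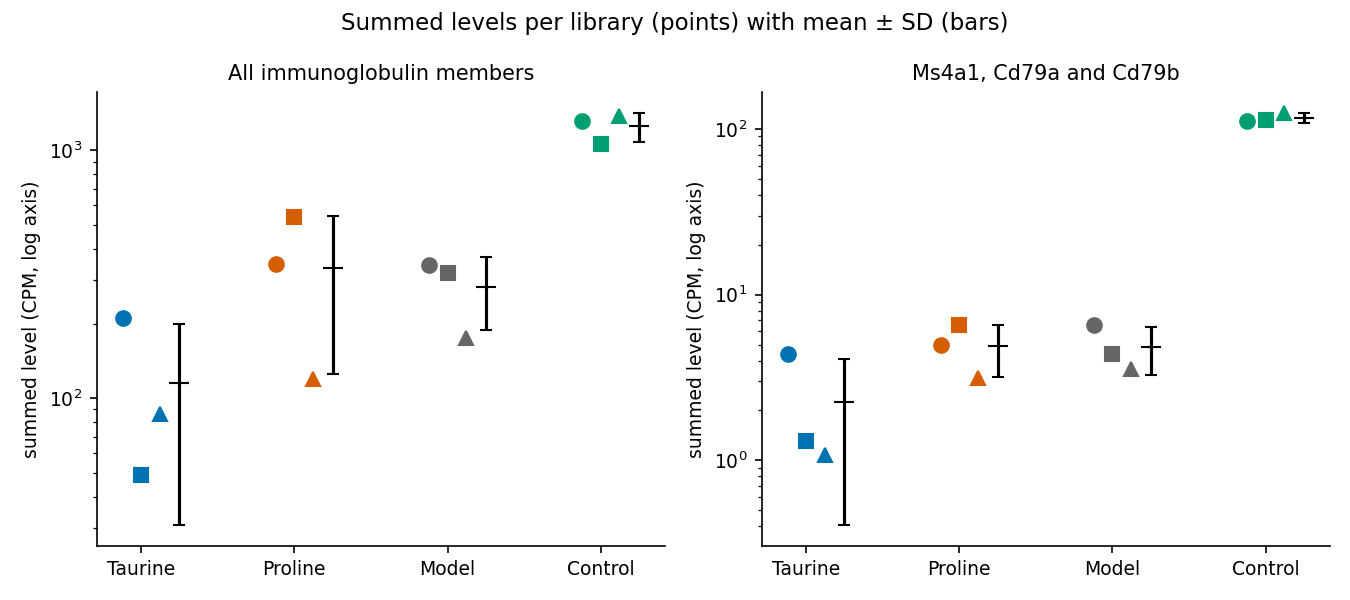
Summed CPM (log axis) of the 173 immunoglobulin members (left) and of the 3 B cell genes Ms4a1, Cd79a and Cd79b (right) in Taurine, Proline, Model and Control. Points are libraries (circle, square and triangle for library 1, 2 and 3) and bars are mean ± SD. All tumour libraries lie below all Control libraries in both panels, and Control is 4.46 times Model on the left and 24.0 times Model on the right.

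Of the 173 members, 161 passed the filter on low counts and were tested in a fit across 23191 genes, and the other 12 were V segments. In Model against Control, 24 of the 161 were lower in edgeR's quasi-likelihood test at an adjusted p under 0.05 and 0 were higher, where 29.3% of all genes tested were lower and 28.8% higher. The 24 were 6 of 11 constant genes, Jchain and 17 of 149 V segments, or 14.9% of the members tested, a smaller share than among all genes. By unadjusted p under 0.05 there were 35, where 62.4% of all genes had one, and DESeq2 called 38, all lower, where it called 29.1% of all genes lower. The median log2 fold change of the members was −1.92, against −0.03 over all genes, and 146 members lay below 0. Model and Control did not overlap in 88 of the 161 (54.7%), all lower in Model, where 36.6% of all genes were lower without overlap. Since 19 members reached the 50 counts in Control and not in the tumour libraries, these counts describe the members that passed the filter and give no support for a difference.

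IgM and IgD are made from the same heavy-chain transcripts by alternative splicing, and mature B cells that have not met antigen carry both. The IgD gene Ighd had 0.316, 0.130 and 0.0767 FPKM (fragments scaled to gene length and library total) in Taurine, 0.764, 0.801 and 0.128 FPKM in Proline, 0.444, 0.990 and 0.407 FPKM in Model and 15.2, 16.4 and 20.7 FPKM in Control. Every tumour library was thus under 1 FPKM and every Control library above 15. In Model against Control, Ighd fell by 4.94 on the log2 scale (SE 0.706, adjusted p = 0.000108 in edgeR's test). The IgM gene Ighm had 28.7, 6.73 and 14.8 FPKM in Taurine, 10.8, 28.8 and 17.7 FPKM in Proline, 41.9, 45.7 and 13.6 FPKM in Model and 50.9, 57.5 and 75.4 FPKM in Control. Model and Control did not overlap, but the log2 fold change of −0.99 did not pass (SE 0.539, adjusted p = 0.139), while voom with sample weights gave −1.05 and called it (adjusted p = 0.0387). Without Model 1 and Model 2 it was −2.25 and passed edgeR's test (adjusted p = 0.0487), with the lone Model library assumed to vary like the other groups. The ratio of Ighm to Ighd, per length, was 90.8, 51.7 and 193 in Taurine, 14.1, 35.9 and 139 in Proline, 94.2, 46.2 and 33.4 in Model and 3.34, 3.51 and 3.65 in Control. All tumour libraries lay above all Control libraries in this ratio.

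IgA is secreted mostly as dimers held together by J chain, the product of Jchain, which also joins IgM into pentamers. The IgA gene Igha had 3.34, 1.02 and 1.77 FPKM in Taurine, 31.6, 8.21 and 1.08 FPKM in Proline, 8.66, 6.16 and 3.15 FPKM in Model and 103.5, 76.7 and 99.1 FPKM in Control. In Model against Control, Igha fell by 4.09 on the log2 scale (SE 0.956, adjusted p = 0.00346 in edgeR's test). Proline 1 was the highest tumour library, with 32.4% of the Control mean of Igha in CPM, beside the 2.02% of Sftpc given above. Sftpc marks alveolar type 2 cells only, and the part of normal lung in the Igha value was not tested. Jchain had 2.19, 0.673 and 0.944 FPKM in Taurine, 5.66, 4.21 and 1.83 FPKM in Proline, 3.49, 3.02 and 2.34 FPKM in Model and 21.2, 18.9 and 24.7 FPKM in Control. It fell by 2.99 on the log2 scale in Model (SE 0.468, adjusted p = 0.000215). No tumour library reached the lowest Control value of either gene.

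The IgG genes, whose antibodies bind the Fc gamma receptors of macrophages, varied widely among libraries of 1 group. Ighg2c, the IgG2 gene that C57BL/6 mice carry in place of Ighg2a, had 2.58, 0.594 and 0.232 FPKM in Taurine, 7.07, 42.3 and 2.59 FPKM in Proline, 10.7, 3.58 and 11.6 FPKM in Model and 26.6, 14.4 and 21.7 FPKM in Control. Ighg2b had 1.62, 0.550 and 0.413 FPKM in Taurine, 2.45, 13.1 and 0.346 FPKM in Proline, 3.89, 2.32 and 2.96 FPKM in Model and 5.34, 5.73 and 5.95 FPKM in Control. In both genes Model lay below Control without overlap, and Proline 2 was the highest of all libraries. The log2 fold changes of Model over Control, −1.38 for Ighg2c (SE 0.984, adjusted p = 0.253) and −1.01 for Ighg2b (SE 0.916, adjusted p = 0.372), did not pass. With only the Model and Control libraries in the fit, both passed edgeR's test (adjusted p = 0.031 for Ighg2c and 0.00308 for Ighg2b).

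Ighg1 had 0.889, 0.032 and 0 FPKM in Taurine, 0.240, 4.86 and 0.461 FPKM in Proline, 1.12, 2.56 and 0.528 FPKM in Model and 0.347, 0.480 and 0.634 FPKM in Control. Its log2 fold change of Model over Control, 1.39, was the only one above 0 among the constant genes and did not pass (adjusted p = 0.447). Ighg3 had 3.26, 0.141 and 0 FPKM in Taurine, 0.449, 1.17 and 0.127 FPKM in Proline, 0.224, 0.365 and 1.31 FPKM in Model and 0.900, 0.905 and 1.67 FPKM in Control, and its log2 fold change was −0.96 (adjusted p = 0.611). Model and Control overlapped in both genes. The IgG genes are closely related in sequence, so reads may be shared between them and the split into subclasses is uncertain.

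Light chains carry a kappa or a lambda constant region, and kappa prevails in mice. Igkc had 50.8, 10.5 and 17.2 FPKM in Taurine, 92.1, 174 and 39.4 FPKM in Proline, 106, 96.3 and 52.5 FPKM in Model and 401, 327 and 421 FPKM in Control. It fell by 2.30 on the log2 scale in Model against Control (SE 0.604, adjusted p = 0.00693 in edgeR's test), and without Model 1 and Model 2, with 1 Model library left, the log2 fold change was −2.96 and did not pass (adjusted p = 0.0504). The lambda gene Iglc1 had 2.59, 0.618 and 1.08 FPKM in Taurine, 3.67, 3.80 and 3.26 FPKM in Proline, 7.72, 5.92 and 1.16 FPKM in Model and 33.9, 12.9 and 31.4 FPKM in Control. It fell by 2.53 in Model (SE 0.669, adjusted p = 0.00712). Iglc2 had 3.90, 0.104 and 1.32 FPKM in Taurine, 0.626, 2.74 and 1.32 FPKM in Proline, 4.10, 4.10 and 0.961 FPKM in Model and 13.5, 15.3 and 29.3 FPKM in Control. Iglc3 had 2.28, 0.0867 and 1.73 FPKM in Taurine, 0.609, 2.74 and 0.236 FPKM in Proline, 1.55, 3.05 and 0.326 FPKM in Model and 10.8, 17.1 and 19.4 FPKM in Control. Iglc2 fell by 2.79 (SE 0.969, adjusted p = 0.0287) and Iglc3 by 3.38 (SE 1.11, adjusted p = 0.0222) in Model against Control. In all 4 light-chain constant genes every tumour library lay below every Control library.

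The calls of Iglc2 and Iglc3 were lost when 1 library was left out, with fold changes that stayed below 0. Neither passed edgeR's test without Control 3 (adjusted p = 0.0871 for Iglc2 and 0.0517 for Iglc3), without Model 1 (0.0561 and 0.0663) or without Model 3 (0.0900 and 0.0663), and Iglc2 did not pass without Model 2 (0.0563). In these fits the log2 fold change was −3.05 to −2.36 for Iglc2 and −3.34 to −2.89 for Iglc3. Their sequences are set side by side to show how few bases tell them apart, since reads may be shared between them. The first 300 bases of each coding exon are given 5′ to 3′ on the minus strand of chromosome 16 in GRCm38, from the GENCODE M21 transcripts, Iglc2 at chr16:19198554-19198853 and Iglc3 at chr16:19065382-19065681. Capitals mark the 11 of 299 aligned bases that differ (96.3% identity).
Iglc2: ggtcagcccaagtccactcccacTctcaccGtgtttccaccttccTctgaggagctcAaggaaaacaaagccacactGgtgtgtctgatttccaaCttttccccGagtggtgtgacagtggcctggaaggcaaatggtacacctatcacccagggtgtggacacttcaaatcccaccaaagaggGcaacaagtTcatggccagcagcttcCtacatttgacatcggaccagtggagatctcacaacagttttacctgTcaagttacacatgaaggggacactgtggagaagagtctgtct
Iglc3: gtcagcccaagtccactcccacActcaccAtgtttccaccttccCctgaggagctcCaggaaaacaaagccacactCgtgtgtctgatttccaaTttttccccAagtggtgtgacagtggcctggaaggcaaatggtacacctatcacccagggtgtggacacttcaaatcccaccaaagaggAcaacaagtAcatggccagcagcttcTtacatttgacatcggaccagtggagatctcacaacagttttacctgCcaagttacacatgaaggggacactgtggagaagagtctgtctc

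**Figure D2:**
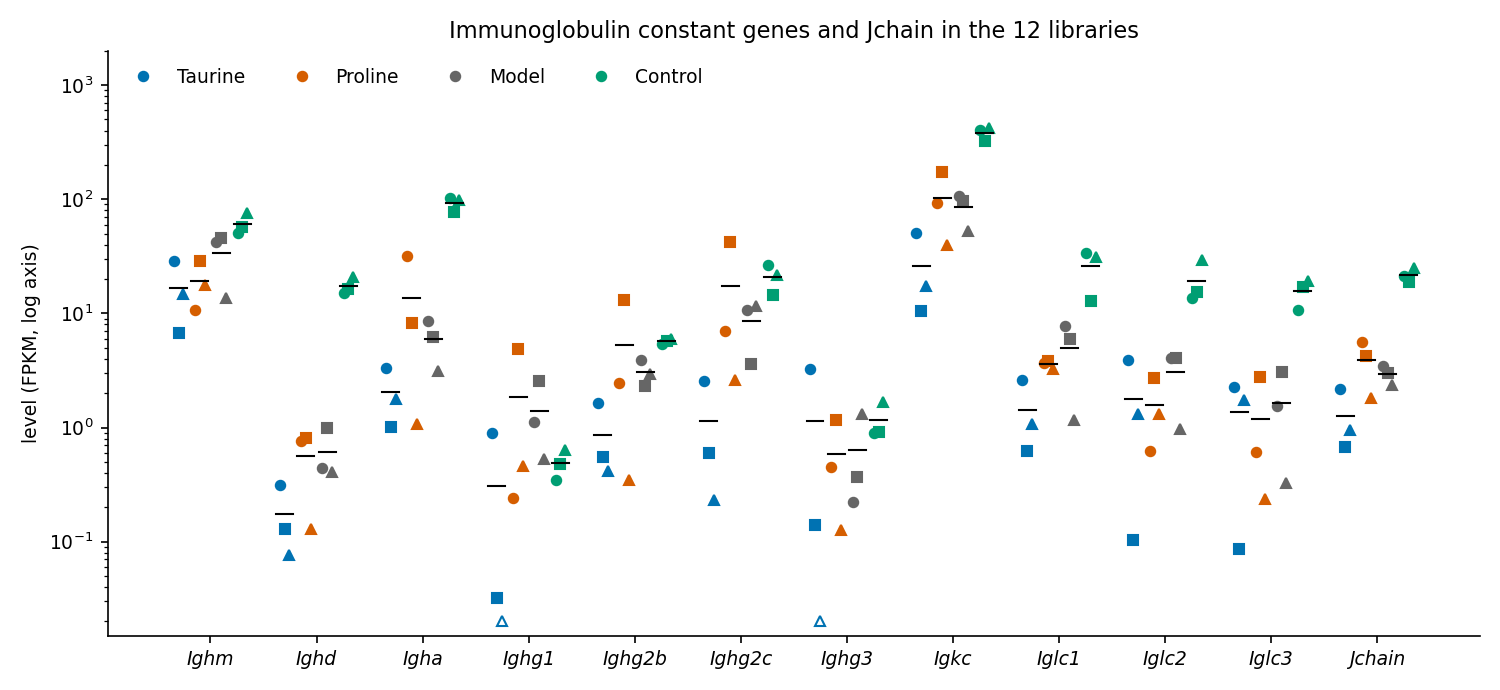
Level (FPKM, log axis) of the 11 constant genes and Jchain in the 12 libraries, with Taurine, Proline, Model and Control from left to right within each gene. Points are libraries (circle, square and triangle for library 1, 2 and 3), short lines are group means, and open symbols at the foot are libraries with 0 counts (Ighg1 and Ighg3 in Taurine 3). Tumour and Control libraries are apart in Ighm, Ighd, Igha, Jchain and the light-chain genes and overlap in Ighg1 and Ighg3. In Ighg2b and Ighg2c, Proline 2 lies above all Control libraries and the other tumour libraries lie below them.

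IgA and IgD took smaller shares of heavy-chain constant transcripts in Model than in Control, and IgM a larger one. Each class is given as a share of the summed FPKM of the 7 heavy-chain constant genes, which compares them per length. IgA made up 8.22%, 11.1% and 10.3% in Taurine, 59.2%, 8.28% and 4.82% in Proline, 12.9%, 9.99% and 9.36% in Model and 51.0%, 44.6% and 44.0% in Control. It averaged 10.8 ± 1.91% in Model and 46.5 ± 3.90% in Control (SD, n = 3 each), a difference of −35.8 percentage points without overlap. IgM made up 70.5%, 73.2% and 85.5% in Taurine, 20.2%, 29.01% and 78.9% in Proline, 62.6%, 74.1% and 40.5% in Model and 25.1%, 33.4% and 33.5% in Control. Model exceeded Control by 28.4 percentage points of IgM, without overlap. Proline 1 lay above all Control libraries in IgA and below them in IgM, and Proline 2 lay among them in IgM. IgD made up 0.776%, 1.41% and 0.444% in Taurine, 1.43%, 0.808% and 0.570% in Proline, 0.664%, 1.60% and 1.21% in Model and 7.50%, 9.52% and 9.18% in Control. All 9 tumour libraries thus held less IgD than each Control library. IgG as a whole made up 20.5%, 14.3% and 3.73% in Taurine, 19.1%, 61.9% and 15.7% in Proline, 23.8%, 14.3% and 49.0% in Model and 16.4%, 12.5% and 13.3% in Control, and Model and Control overlapped. As shares of counts, IgG did not overlap, with 21.4%, 15.1% and 44.6% in Model and 11.6%, 9.95% and 10.2% in Control. Within IgG, the FPKM shares of IgG1 and IgG2b were higher in Model without overlap, and those of IgG2c and IgG3 overlapped. These shares combine members chosen with results known and are descriptions, with no test.

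The leading class was IgA in each Control library and IgM in each Taurine library. Model 1 and Model 2 were led by IgM and Model 3 by IgG, and each Proline library had another leading class, IgA in Proline 1, IgG in Proline 2 and IgM in Proline 3. As shares of counts, IgA took 68.0% of the 10792 heavy-chain constant counts of Proline 1 (exact 95% Clopper-Pearson interval 67.2% to 68.9%). IgG2c took 30.4% of the 15546 such counts of Proline 2 (29.7% to 31.1%). Taurine 2 had the fewest, 1578, and its IgA share was 14.8% (13.1% to 16.7%). The zeros of Ighg1 and Ighg3 in Taurine 3 were 0 of 2984 counts, which allows a share of up to 0.101% each by a limit of 3 counts and 0.124% by the exact interval. These intervals and limits cover counting error only. IgG2c made up 6.34%, 6.46% and 1.34% of FPKM in Taurine and 13.3%, 42.6% and 11.5% in Proline, without overlap. Every other class overlapped in Taurine against Proline, and all classes overlapped in Taurine against Model and in Proline against Model.

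**Figure D3:**
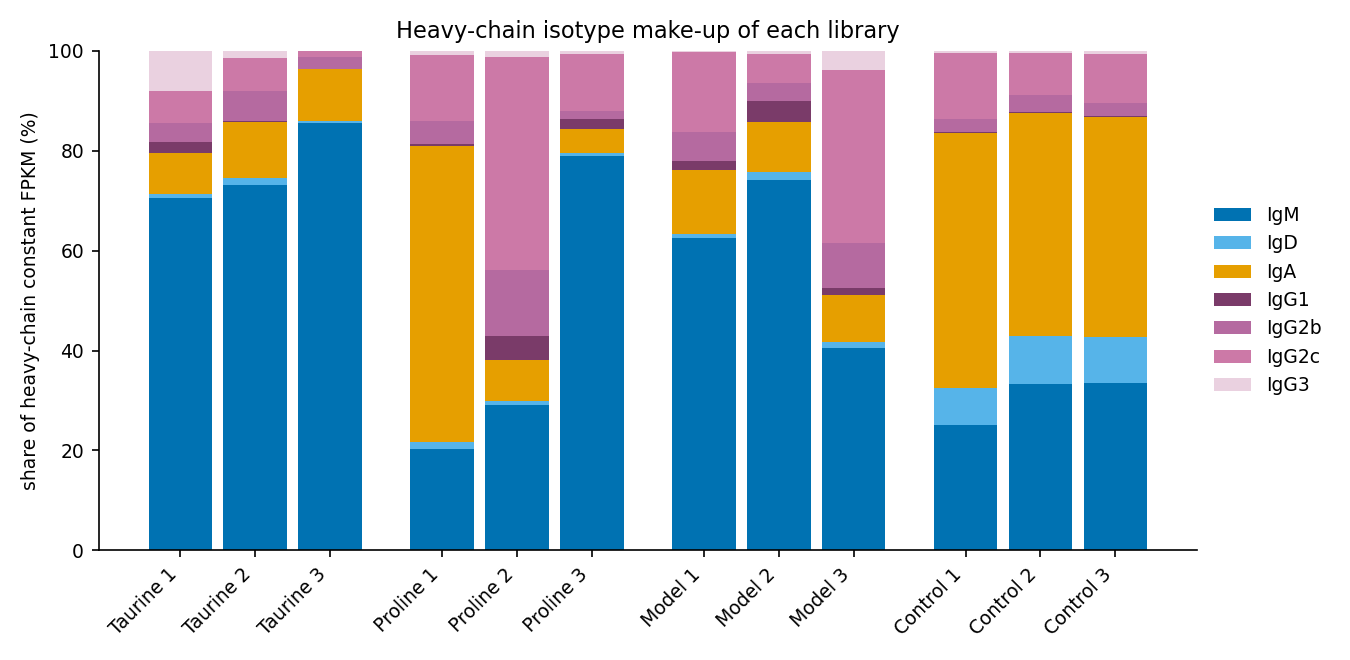
Share (%) of each heavy-chain class in the summed FPKM of the 7 heavy-chain constant genes, 1 bar per library, in the order Taurine, Proline, Model and Control. IgA takes 4.82% to 12.9% in 8 tumour libraries, 59.2% in Proline 1 and 44.0% to 51.0% in Control.

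Kappa made up 85.3%, 92.9% and 80.6% of the light-chain constant FPKM in Taurine, 94.9%, 94.9% and 89.1% in Proline, 88.8%, 88.1% and 95.5% in Model and 87.3%, 87.8% and 84.0% in Control. The Model values lay above the Control values without overlap, by 4.41 percentage points on average and by 2.05 without Model 3. Jchain relative to Igkc, per length, was 0.0431, 0.0639 and 0.0548 in Taurine, 0.0614, 0.0242 and 0.0464 in Proline, 0.0328, 0.0313 and 0.0446 in Model and 0.0529, 0.0579 and 0.0588 in Control. Model lay below Control in this ratio, and Proline 2 was the lowest of all libraries.

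V segments encode most of the part of an antibody that touches its antigen. In Model against Control 17 of the 149 tested (11.4%) were called lower, where 29.3% of all genes tested were. Of the 17, 9 were heavy and 8 kappa, and none of the 3 lambda segments passed. The kappa segment Igkv5-43 had 0.447, 0.731 and 0.0789 CPM in Model, against 3.74, 2.77 and 4.18 CPM in Control, a fall of 3.08 on the log2 scale (SE 0.837, adjusted p = 0.00833 in edgeR's test). Igkv17-121 had 1.02, 0.215 and 0.584 CPM in Model, against 3.60, 3.26 and 3.82 CPM in Control (log2 fold change −2.55, adjusted p = 0.00861). Igkv10-96 had 0.463, 0.860 and 1.39 CPM in Model, against 9.46, 8.10 and 7.55 CPM in Control (log2 fold change −3.21, adjusted p = 0.0108). Each of these Control libraries lay well above each Model library. Among the called segments Ighv1-62-3, Igkv1-88 and Igkv5-45 had 0 counts in all Model libraries. They were at least 25.3-fold, 26.1-fold and 35.7-fold lower in Model, taken against 3 counts over the group.

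The most abundant segments mostly did not pass. Iglv1, with the highest summed count, had 3.82, 7.05 and 0.994 CPM in Model, against 15.2, 6.53 and 17.3 CPM in Control (adjusted p = 0.0944). Igkv1-117, with the highest count among kappa segments, had 1.57, 1.53 and 0.379 CPM in Model, against 5.13, 6.77 and 5.31 CPM in Control (log2 fold change −2.30, adjusted p = 0.071). Igkv1-110 had 3.96, 1.65 and 2.04 CPM in Model, against 6.12, 3.79 and 5.29 CPM in Control (adjusted p = 0.363). Iglv1 and Igkv1-110 overlapped between the groups and Igkv1-117 did not. Of the 5 heavy segments with the highest counts, Ighv1-81 fell (log2 fold change −3.33, adjusted p = 0.042), and Ighv1-26, Ighv1-7, Ighv1-64 and Ighv1-55 did not pass, with adjusted p-values of 0.578, 0.113, 0.196 and 0.0608. Neither did the kappa segments Igkv14-111 (0.0621) and Igkv1-135 (0.304), nor the lambda segments Iglv2 (0.252) and Iglv3 (0.196), all below 0 in fold change.

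Sequences of the leading light-chain segments show how few bases differ within each pair. In the first 300 bases of the V exon, Igkv1-117 (chr6:68121515-68121814, plus strand) and Igkv1-110 (chr6:68270955-68271254, plus strand) differ at 10 (96.7% identity). Iglv1 (chr16:19085022-19085321, minus strand) and Iglv2 (chr16:19260406-19260705, minus strand) differ at 9 (97.0% identity). All are given 5′ to 3′ on the coding strand in GRCm38, from the GENCODE M21 transcripts, and capitals mark the bases that differ within a pair. Reads may be shared within each pair, so the level of each single segment is uncertain.
Igkv1-117: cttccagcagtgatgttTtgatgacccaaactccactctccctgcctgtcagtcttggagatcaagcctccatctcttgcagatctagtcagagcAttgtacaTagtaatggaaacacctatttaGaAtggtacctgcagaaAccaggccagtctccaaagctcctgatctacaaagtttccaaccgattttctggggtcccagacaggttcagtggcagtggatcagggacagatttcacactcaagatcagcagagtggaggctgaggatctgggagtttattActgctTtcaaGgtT
Igkv1-110: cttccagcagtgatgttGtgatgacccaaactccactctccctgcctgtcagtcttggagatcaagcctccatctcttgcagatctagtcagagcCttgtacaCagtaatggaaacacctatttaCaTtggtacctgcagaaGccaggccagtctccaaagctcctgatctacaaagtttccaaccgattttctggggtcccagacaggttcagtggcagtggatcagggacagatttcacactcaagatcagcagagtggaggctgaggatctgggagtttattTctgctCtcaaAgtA
Iglv1: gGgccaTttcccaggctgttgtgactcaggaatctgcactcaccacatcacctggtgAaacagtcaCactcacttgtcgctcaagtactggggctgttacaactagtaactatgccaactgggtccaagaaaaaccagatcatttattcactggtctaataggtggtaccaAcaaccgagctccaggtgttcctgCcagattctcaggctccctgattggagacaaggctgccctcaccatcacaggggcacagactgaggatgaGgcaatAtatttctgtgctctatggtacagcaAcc
Iglv2: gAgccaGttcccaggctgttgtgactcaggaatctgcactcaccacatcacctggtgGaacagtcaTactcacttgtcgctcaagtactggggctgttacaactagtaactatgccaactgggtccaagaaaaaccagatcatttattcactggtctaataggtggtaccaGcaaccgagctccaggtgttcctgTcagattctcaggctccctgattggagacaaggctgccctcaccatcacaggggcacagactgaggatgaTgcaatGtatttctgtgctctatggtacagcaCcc

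Of the 149 V segments tested, 14 had a fold change above 0 in Model against Control, and none of these passed. The smallest adjusted p among them belonged to Igkv14-126, which had 1.67, 1.18 and 0.584 CPM in Model, against 0.702, 0.362 and 0.240 CPM in Control (log2 fold change 1.39, SE 1.09, adjusted p = 0.300). Ighv14-2 had 1.90, 2.81 and 0.205 CPM in Model, against 1.30, 1.09 and 0.462 CPM in Control (log2 fold change 0.79, adjusted p = 0.449). Ighv11-2 had 0.709, 0 and 0.821 CPM in Model, against 0.432, 0.379 and 0.171 CPM in Control (log2 fold change 0.64, adjusted p = 0.734). The groups overlapped in each case. Ighv11-2 and Igkv14-126 are known in mice as heavy and kappa segments of phosphatidylcholine-binding antibodies of B-1 cells. Both are named here for a fold change above 0 that did not pass. Whether B-1 cells carried them was not tested.

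Of the gene lists of the B lineage, the B cell surface and identity list had the lowest median in Model against Control. Of its 17 genes, all tested, 15 fell and 1 rose, at a median log2 fold change of −4.47, against −1.92 over the immunoglobulin members. Pax5, the factor that holds B cell identity, fell by 4.47 (adjusted p = 2.4e-06 in edgeR's test), with means of 0.816 ± 0.119 CPM for Model and 18.1 ± 3.28 CPM for Control (SD, n = 3 each). Ms4a1, which encodes CD20, fell by 5.28, and the chemokine receptor gene Ccr7 by 4.03. The gene that rose was Ebf1 (log2 fold change 0.45, adjusted p = 0.0494), a factor of early B cells that stromal and adipose precursors also express. The summed level of Ms4a1, Cd79a and Cd79b, which encode B cell surface proteins, was 4.39, 1.31 and 1.07 CPM in Taurine, 4.94, 6.57 and 3.14 CPM in Proline, 6.60, 4.37 and 3.58 CPM in Model and 111, 113 and 125 CPM in Control. These 3 genes, picked with results known, were 24.0-fold lower in Model by their mean sum. Summed immunoglobulin CPM per CPM of these 3 genes came to 47.9, 37.3 and 80.7 in Taurine, 70.1, 82.1 and 38.1 in Proline, 52.3, 73.3 and 48.8 in Model and 11.8, 9.36 and 10.97 in Control. Each tumour library lay above each Control library in this ratio, which was not so with the whole list of 17 genes. The summed level of that list averaged 47.5 ± 5.67 CPM over Model and 326 ± 42.2 CPM over Control libraries (SD, n = 3 each), 6.86-fold lower in Model. Immunoglobulin CPM per CPM of the list came to 3.89, 1.14 and 2.08 in Taurine, 4.68, 7.77 and 2.51 in Proline, 6.50, 6.69 and 4.20 in Model and 4.49, 3.40 and 3.68 in Control, so that tumour libraries lay on both sides of Control and Model overlapped with it. Cd72 and Ebf1 together made up 55.8% to 84.8% of the summed level of the list in the tumour libraries and 9.995% to 11.8% in Control.

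**Figure D4:**
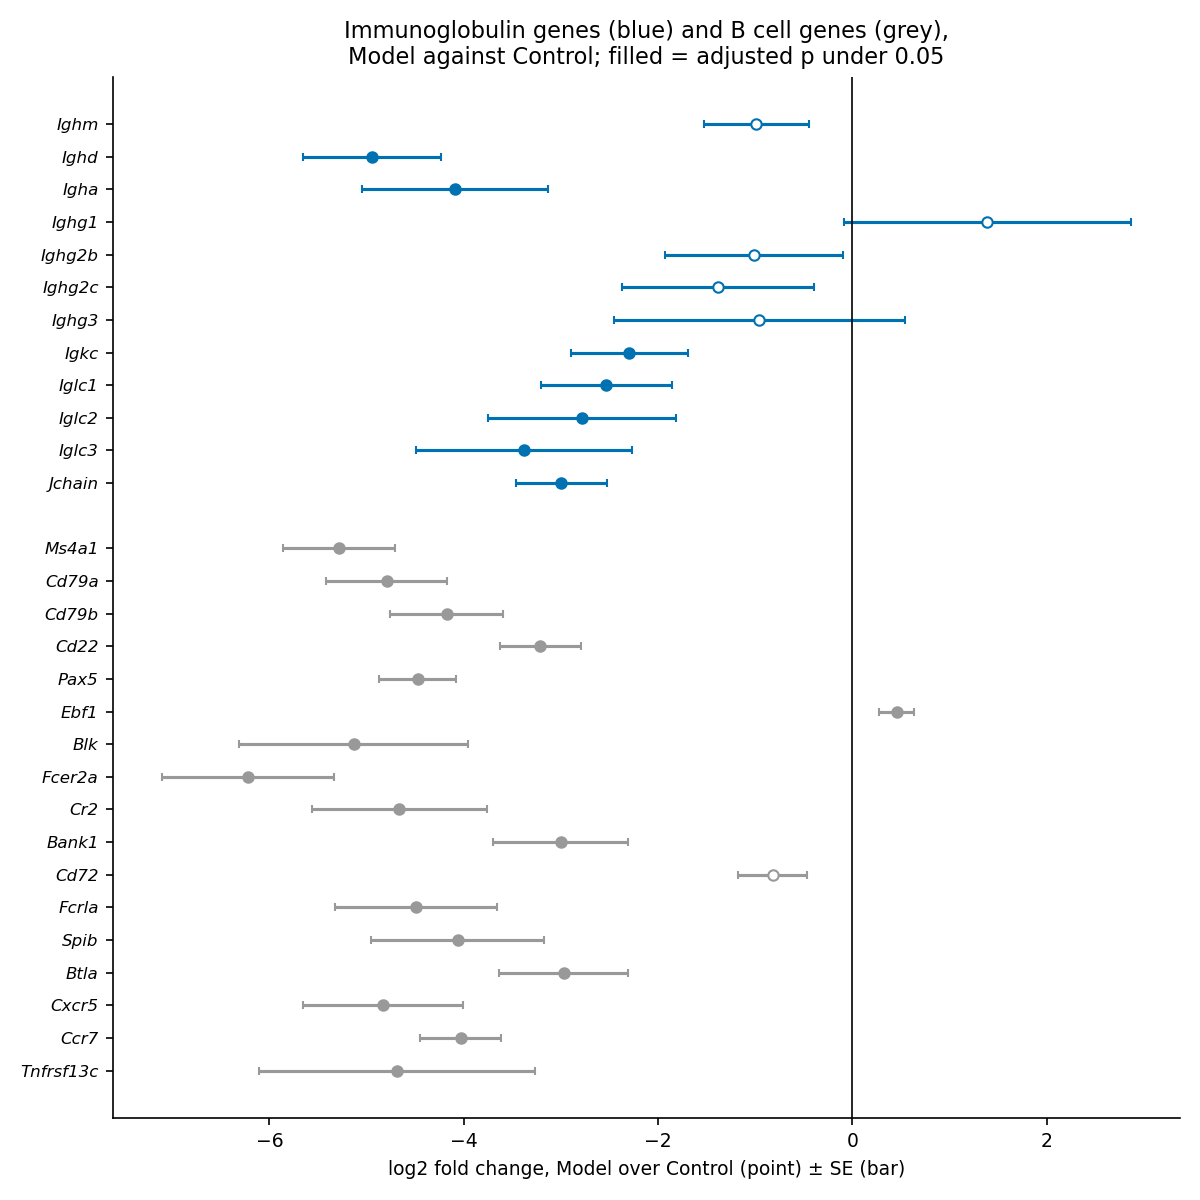
log2 fold change of Model over Control (point) ± SE (bar) for the constant genes and Jchain (blue) and for the 17 genes of the B cell list (grey), with filled points for an adjusted p under 0.05 in edgeR's test. Ighd (−4.94) and Igha (−4.09) lie near the median of the B cell genes (−4.47), while Ighm and the IgG genes lie nearer 0 and are not filled.

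Of 15 genes of plasma cells and of the secretory pathway, 11 fell and 3 rose in Model against Control, and the median log2 fold change was −0.95. The lineage factors Irf4 (−2.93) and Prdm1 (−2.99) fell, and Sdc1, which encodes the plasma cell surface protein syndecan-1 and is also expressed by epithelial and tumour cells, fell by 0.51. Those that rose were Fkbp11, Edem1 and Creb3l2, which serve the endoplasmic reticulum of many secretory cells, with log2 fold changes of 1.49, 0.53 and 0.49. Mzb1, a chaperone of plasma and marginal zone B cells, had 0.771, 1.08 and 0.237 CPM in Model, against 12.3, 12.6 and 10.4 CPM in Control (adjusted p = 0.0276). Tnfrsf17, which encodes the plasma cell receptor BCMA, had 0 counts in all Model libraries and was at least 53.7-fold lower there, taken against 3 counts over the group. Mzb1 and Tnfrsf17 were picked with their values known. Of 3 factors of the octamer element of immunoglobulin promoters, Pou2f2 (−1.28) and the B cell coactivator Pou2af1 (−3.57) fell, and Pou2f1 did not pass (0.16, adjusted p = 0.374).

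Few genes of B cell formation could be tested. Of the genes of B cell precursors and recombination 4 passed the filter, and Vpreb3, which encodes a protein of precursor and immature B cells, and Il7r, a lymphocyte growth factor receptor, fell by 7.47 and 2.62 on the log2 scale. Rag1, which starts V segment joining in precursor B and T cells, had 2.74, 0.473 and 0 CPM in Model, against 0.162, 0.345 and 0 CPM in Control, and did not pass (adjusted p = 0.364). Of 7 genes of class switching and the germinal centre, 4 rose and 3 fell in Model, with a median log2 fold change of 0.93. Among those that rose, Msh6 (2.17) serves mismatch repair in dividing cells of any kind, and Mybl1 (2.93) is a transcription factor of germinal centre B cells and of the male germ line. Ung also rose, with means of 12.1 ± 1.01 CPM for Model and 2.13 ± 0.654 CPM for Control (SD, n = 3 each). So did S1pr2, with means of 74.9 ± 5.63 CPM for Model and 39.3 ± 3.70 CPM for Control. Fas, a death receptor, fell by 4.34, and Bcl6 and Gcsam of the same list fell by 0.79 and 2.83.

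Of 8 tested genes for signals that attract B and plasma cells or keep them alive, 5 fell in Model against Control and 0 rose. Tnfsf13b, which encodes the B cell survival factor BAFF, averaged 1.43 ± 0.416 CPM over Model and 27.2 ± 3.64 CPM over Control libraries (SD, n = 3 each), a log2 fold change of −4.24. The chemokine gene Cxcl12 fell by 3.17 on the log2 scale, and Tnfsf13, which encodes the plasma cell factor APRIL, by 1.35. Cxcl13, the chemokine of B cell follicles, had 9.74, 12.2 and 8.13 CPM in Model, against 1.31, 2.43 and 3.55 CPM in Control, without overlap, and did not pass (log2 fold change 2.04, adjusted p = 0.0532). Of 10 genes that bind or carry immunoglobulin, 5 rose and 3 fell. The Fc gamma receptor genes Fcgr3, Fcgr2b and Fcgr1 rose by 2.31, 2.21 and 2.34, and 7 of 8 macrophage genes rose beside them, with a median of 2.40. Pigr, the receptor that carries dimeric IgA and pentameric IgM across epithelium, averaged 1.13 ± 1.24 CPM over Model and 69.1 ± 9.82 CPM over Control libraries, a log2 fold change of −5.92 (adjusted p = 0.000756). Fcmr and Fcamr, whose products bind IgM, fell by 5.09 and 6.65.

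Markers of other cells moved with Model and Control. Of 12 T cell genes 6 fell in Model, among them Il2rg, Cd2 and Cd3g, with a median log2 fold change of −2.40 over the list. All 8 alveolar type 2 genes, all 6 endothelial genes and 5 of 7 erythroid genes fell. Of the 4 tested thymocyte genes Cd1d1 fell, and Rag1, Dntt and Themis did not pass. In the liver list Ahsg rose, Trf fell and 6 genes did not pass. Of the 5 tested genes of lymph node stroma and spleen, Cr2, Ccl21a and Nkx2-5 fell, Ltf did not pass, and Glycam1, with 0 counts in Control, rose. Their part in the immunoglobulin result was not tested.

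Taurine against Model and Proline against Model ask what each amino acid changed in the tumour, and they share the 3 Model libraries. Mean immunoglobulin levels were lower in Taurine than in Model, and the Proline libraries lay on both sides of Model, but no member passed edgeR's test in either comparison. Transcripts of some other cells were lower in Taurine as well, with a median log2 fold change against Model of −1.69 over 7 erythroid genes and −1.82 over 12 T cell genes, all below 0 and none of them called. It was −5.56 over 8 liver genes, −0.21 over 8 macrophage genes and −0.07 over 6 endothelial genes. Over 8 alveolar type 2 genes it was 0.88, with 7 above 0. The summed level of the erythroid genes was 68.6, 147 and 58.4 CPM in Taurine and 323, 348 and 213 CPM in Model, without overlap, and the part of these cells in the immunoglobulin values was not tested. The summed level averaged 115 ± 84.5 CPM in Taurine and 280.1 ± 91.8 CPM in Model (SD, n = 3 each), a log2 ratio of −1.28, and Taurine 1 with 210.2 CPM lay above Model 3 with 175 CPM. It averaged 335 ± 210.1 CPM in Proline and 280.1 ± 91.8 CPM in Model, a log2 ratio of 0.26, which was −0.26 without Proline 2. In Taurine against Model 0 of 161 members were called, where 0% of all genes were, and 41 members had an unadjusted p under 0.05, where 6.79% of all genes had one. In Proline against Model 0 of 161 were called, where 0% of all genes were, and 11 had an unadjusted p under 0.05, where 13.4% of all genes had one. DESeq2 called 6 members lower in Taurine than in Model (0.424% of all genes in either direction), namely Ighv1-18, Ighv1-54, Ighv2-9, Igkv12-46, Igkv3-2 and Igkv6-20. In Proline against Model it called Igkv1-117 higher and Ighv10-1 lower (3.65% of all genes), and voom and limma called 0 members in both comparisons.

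In Taurine against Model, the log2 fold change of Igkc was −1.66 (SE 0.596, adjusted p = 0.705 by edgeR), and the groups did not overlap. Ighd, Ighg2b, Ighg2c and Jchain were also lower in Taurine without overlap, with log2 fold changes of −1.76, −1.79, −2.91 and −1.18 and adjusted p-values of 0.705 to 0.746. Ighm (−0.97), Igha (−1.51) and the other constant genes overlapped. Ighg3 was the only constant gene with a fold change above 0 (0.83, adjusted p = 0.973), and Taurine 1 alone was high. Without Taurine 1 its log2 fold change was −3.11, and by voom −1.31, neither of which passed (adjusted p = 0.636 and 0.849). Of 161 members 33 (20.5%) were lower in Taurine without overlap, where 6.16% of all genes were. The V segments with the smallest p were Igkv3-2, Ighv2-9 and Igkv3-10. Igkv3-2 had 0.0731, 0 and 0 CPM in Taurine, against 2.65, 1.12 and 0.158 CPM in Model (log2 fold change −5.62, adjusted p = 0.635). Ighv2-9 and Igkv3-10 had 0 counts in all Taurine libraries and were at least 52.4-fold and 113-fold lower than in Model, taken against 3 counts over the group, each with an adjusted p of 0.705. Those above 0 with the smallest p were Igkv1-88, Ighv2-6-8 and Ighv5-6, with at most 20 counts in any Taurine library and adjusted p-values of 0.778, 0.817 and 0.846.

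Of the 161 members 4 were higher in Proline than in Model without overlap and 2 lower, where 8.77% and 9.26% of all genes were. In Proline against Model every constant gene and Jchain overlapped, with adjusted p-values of 0.570 to 1 in edgeR's test. The log2 fold change of Igha was 1.24 (SE 0.861, adjusted p = 0.576) and that of Ighg2c was 1.02 (SE 0.976, adjusted p = 0.715). In each gene 1 Proline library was high, Proline 1 for Igha and Proline 2 for Ighg2c, and without it the value was −0.34 for Igha and −0.81 for Ighg2c. Of the V segments, Ighv10-1, Ighv1-36 and Igkv12-41 had the smallest p below 0 (adjusted p = 0.268, 0.298 and 0.309). Ighv1-62-3, Igkv1-117 and Ighv1-71 had the smallest p above 0 (adjusted p = 0.279, 0.282 and 0.333). Igkv1-117 had 2.74, 20.2 and 1.24 CPM in Proline, against 1.57, 1.53 and 0.379 CPM in Model, so that Proline 2 alone stood far above the rest.

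Taurine against Proline compares the tumours given each amino acid directly. In this comparison 0 of 161 members were called, where 0.0431% of all genes were, and 50 had an unadjusted p under 0.05, where 14.4% of all genes had one. The log2 ratio of the mean summed levels was −1.54, and Taurine 1 with 210.2 CPM lay above Proline 3 with 119 CPM. Of the 161 members 21 (13.0%) were lower in Taurine without overlap, where 7.79% of all genes were. Jchain (log2 fold change −1.62, SE 0.451) and Ighg2c (−3.92, SE 1.10) had the smallest adjusted p among the constant genes, 0.160 each, and Iglc1 (−1.31, adjusted p = 0.390) was the only one without overlap in CPM. Igkc had a log2 fold change of −1.96 (adjusted p = 0.185), Igha of −2.75 (adjusted p = 0.212) and Ighm of −0.19 (adjusted p = 0.940). Without Proline 3, Igha and Jchain passed edgeR's test (adjusted p = 0.0394 and 0.0477) and 7 members were called. DESeq2 called 23 members, all lower in Taurine (5.16% of all genes in either direction), with Ighg2c, Igkc and Jchain among them (adjusted p = 0.00834, 0.0492 and 0.00453), while voom and limma called 0. The V segments with the smallest p were Igkv3-4 (log2 fold change −8.03, adjusted p = 0.123), Ighv1-18 (−4.44, adjusted p = 0.137) and Igkv17-121 (−2.90, adjusted p = 0.141). Those above 0 were Ighv10-1, Ighv2-6-8 and Igkv4-63, with adjusted p-values of 0.317, 0.335 and 0.457.

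No gene of the B cell, plasma cell and other lists passed edgeR's test in Taurine against Model, Proline against Model or Taurine against Proline. Of the 17 B cell genes, 15 lay below 0 and 2 above in Taurine against Model (median log2 fold change −0.77). In Proline against Model, 14 lay above 0 and 3 below (median 0.48). In Taurine against Proline, 16 lay below 0 and 1 above (median −1.11). Cd72 and Ebf1 had the highest mean levels of the B cell list. Both had higher means in Taurine than in Model, unlike most of the list. Cd72 averaged 14.0 ± 5.61 CPM in Taurine, 28.5 ± 13.1 CPM in Proline and 13.0 ± 3.01 CPM in Model, and Ebf1 averaged 22.5 ± 3.92 CPM in Taurine, 14.4 ± 1.64 CPM in Proline and 17.98 ± 2.65 CPM in Model (SD, n = 3 each). Creb3l2 and Sdc1 had the highest mean levels of the plasma cell list. Creb3l2 averaged 215.6 ± 29.1 CPM in Taurine, 170.6 ± 25.4 CPM in Proline and 192 ± 17.3 CPM in Model. Sdc1 averaged 150.1 ± 8.98 CPM in Taurine, 165 ± 28.1 CPM in Proline and 161 ± 10.8 CPM in Model. Xbp1, a factor of secretory cells, averaged 138 ± 2.43 CPM in Taurine, 139 ± 15.6 CPM in Proline and 143 ± 9.70 CPM in Model. Ebf1 did not overlap between Taurine and Proline, and Cd72 and Ebf1 did not overlap between Proline and Model.

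The libraries differed in which V segments carried their counts. The Taurine libraries had 3898, 927 and 1556 V counts, the Proline libraries 6348, 10491 and 2036, the Model libraries 5782, 5921 and 2905 and the Control libraries 14547, 11426 and 14500. To compare them at equal counts, the number of segments expected among 900 V counts was computed for each library. It was 99.4, 63.0 and 58.7 in Taurine, 113, 114 and 72.5 in Proline, 114, 103 and 101 in Model and 133, 130.0 and 132 in Control, so that every tumour library had fewer than every Control library. The inverse Simpson number, the count of equally used segments that would give the same evenness, was 38.9, 30.4 and 24.0 in Taurine, 53.3, 26.7 and 33.8 in Proline, 59.6, 37.9 and 58.0 in Model and 62.9, 68.4 and 61.3 in Control. It averaged 51.8 ± 12.1 in Model and 64.2 ± 3.73 in Control (SD, n = 3 each), and again all tumour libraries lay below all Control libraries. Both numbers use only segments that passed the minimum of 50 counts. Of all members, 19 reached it in Control and not in the tumour libraries, and 12 the reverse. Setting the libraries to equal counts does not remove this choice of segments, so both numbers are descriptions. The 10 leading segments took 39.05%, 48.8% and 52.5% of V counts in Taurine, 32.5%, 46.3% and 45.5% in Proline, 29.4%, 41.5% and 29.5% in Model and 28.7%, 27.4% and 28.2% in Control.

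Of the 161 segments, 52 had more than 50% of their summed tumour CPM in a single tumour library, 19 of them in Proline 2, 10 in Proline 1 and 8 in Model 2.

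Iglv1 led in 6 of the 12 libraries and Igkv1-110 in 3, namely Proline 1, Model 1 and Model 3. Iglv1 took 9.49%, 5.50% and 10.9% of V counts in Taurine, 2.82%, 4.23% and 6.14% in Proline, 4.29%, 8.31% and 2.17% in Model and 5.80%, 3.32% and 6.97% in Control. Taurine 2, with the fewest V counts, was led by Igkv15-103 at 7.01% (65 of 927 counts, exact 95% interval 5.45% to 8.85%), followed by Ighv11-2 at 6.90%. Control 2 was led by Igkv10-96 at 4.11%. Proline 2 stood apart, with 12.5% of its V counts from Igkv1-117 (1313 of 10491, exact 95% interval 11.9% to 13.2%), against 0.826% to 5.07% in the other 11 libraries. Ighv1-7 took 7.71% there (809 counts, 7.21% to 8.24%), Igkv3-4 took 7.49% (786 counts, 6.995% to 8.01%) and Ighv14-1 took 4.72% (495 counts). Ighv1-7 had 12.4 CPM in Proline 2, against 0.136 CPM in Proline 1 and 0 in Proline 3, and Igkv3-4 had 12.1 CPM in Proline 2, against 0.971 and 0.171 CPM in Proline 1 and Proline 3. Proline 2 was also the library with the highest Ighg2c level of all 12. Whether the same cells carried these segments and Ighg2c was not tested.

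The first 300 bases of the V exons of Ighv1-7 (chr12:114538500-114538799, minus strand), Ighv14-1 (chr12:113931958-113932257, minus strand) and Igkv3-4 (chr6:70672068-70672367, plus strand), which with Igkv1-117 took the largest shares of V counts in Proline 2, are printed in lower case with no base marked. They are again from the GENCODE M21 transcripts on GRCm38, 5′ to 3′ on the coding strand.
Ighv1-7: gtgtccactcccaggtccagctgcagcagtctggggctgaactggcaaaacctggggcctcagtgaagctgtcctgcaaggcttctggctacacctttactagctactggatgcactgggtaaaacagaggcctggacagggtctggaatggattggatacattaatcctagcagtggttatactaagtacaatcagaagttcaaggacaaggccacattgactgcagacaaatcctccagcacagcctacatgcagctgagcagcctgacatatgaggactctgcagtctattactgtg
Ighv14-1: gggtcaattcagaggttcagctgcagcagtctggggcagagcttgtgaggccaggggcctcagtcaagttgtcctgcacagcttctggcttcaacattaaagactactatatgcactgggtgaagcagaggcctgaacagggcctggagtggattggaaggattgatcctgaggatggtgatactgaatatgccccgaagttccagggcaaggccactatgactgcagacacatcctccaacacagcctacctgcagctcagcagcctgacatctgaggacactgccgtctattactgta
Igkv3-4: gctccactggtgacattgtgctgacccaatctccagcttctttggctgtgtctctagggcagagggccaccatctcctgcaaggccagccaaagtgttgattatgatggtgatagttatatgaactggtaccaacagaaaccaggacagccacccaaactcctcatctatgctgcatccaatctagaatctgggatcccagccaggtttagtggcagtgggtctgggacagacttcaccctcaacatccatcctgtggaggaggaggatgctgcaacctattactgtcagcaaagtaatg

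**Figure D5:**
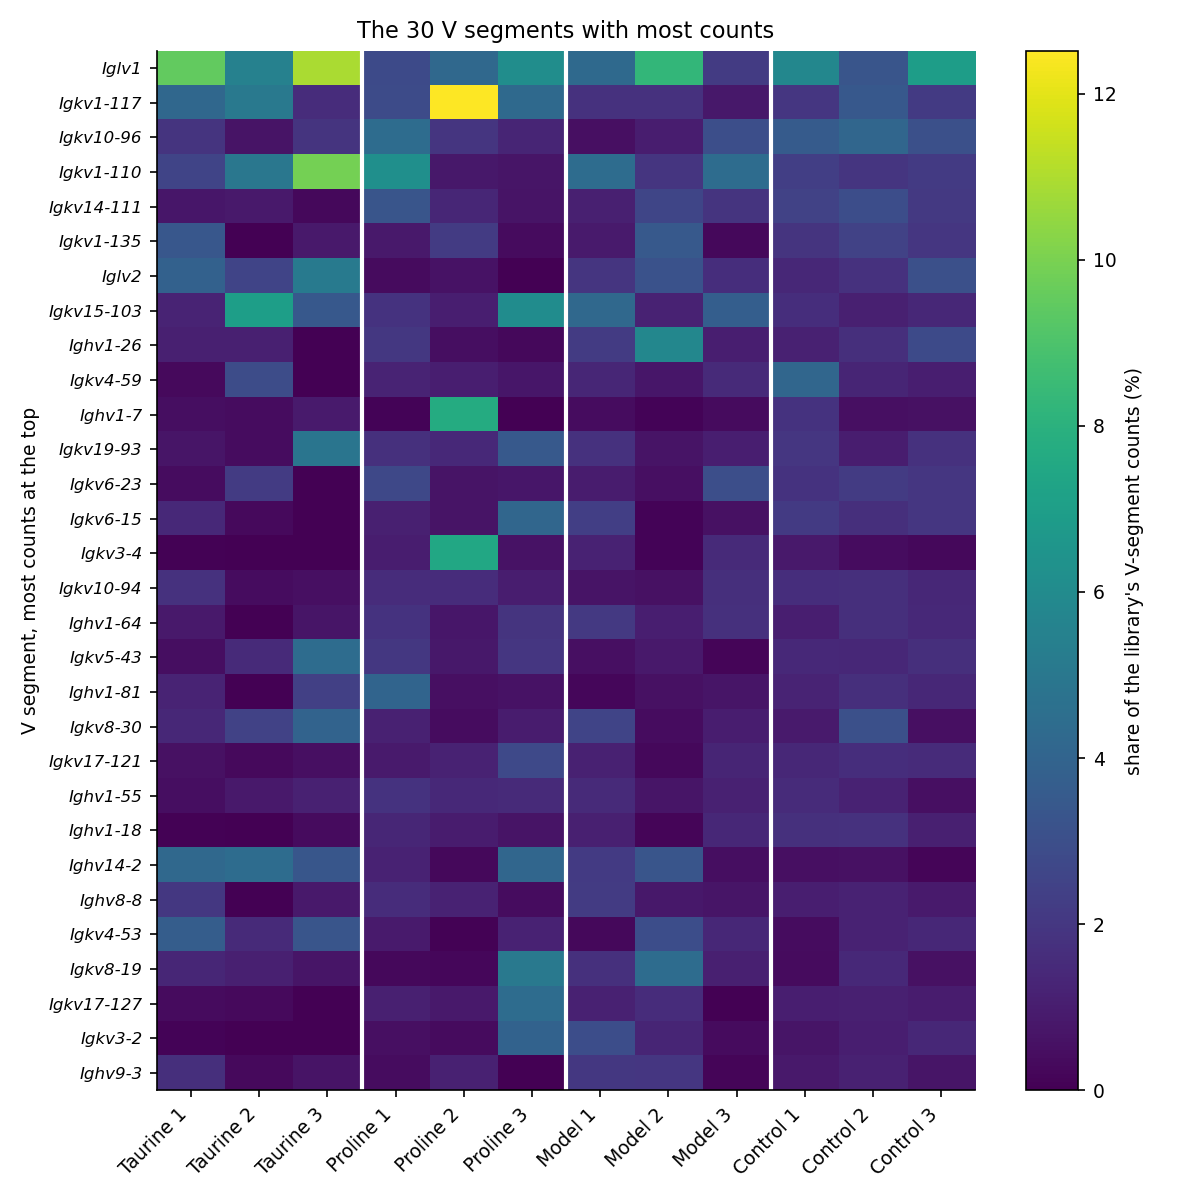
Share (%) of each library's V counts taken by the 30 V segments with most counts, in the libraries of Taurine, Proline, Model and Control from left to right. Taurine 3 shows high shares of Iglv1 (10.9%) and Igkv1-110 (9.90%) and Proline 2 of Igkv1-117 (12.5%), Ighv1-7 (7.71%) and Igkv3-4 (7.49%), while no segment exceeds 6.97% in Control.

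Summed V CPM relative to summed constant CPM was 0.390, 0.443 and 0.392 in Taurine, 0.416, 0.442 and 0.344 in Proline, 0.364, 0.376 and 0.378 in Model and 0.267, 0.248 and 0.239 in Control. All tumour libraries lay above all Control libraries. The ratio is of counts, not per length, and the lengths implied by the deposited FPKM differ between constant genes, at 3499 bases for Igha and 2469 bases for Ighm. The part of the class mix in this ratio was not tested.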

How the data were processed

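Per the file headers, the authors deposited 1 table of raw counts and FPKM values per gene for the 12 libraries. The submitters' processing notes name mm10, and the sources used here give no aligner, counter or use of strand. The deposited FPKM follow from the counts, a fixed length per gene and the library total, since 99.9% of values of the 10787 genes with at least 200 counts were within 1% of that product. Of 33734 gene IDs shared with GENCODE M21 on GRCm38, 1.81% had the same position, so positions are given for printed sequences only, read from GENCODE M21 (Biopython 1.88).

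Raw counts were tested with edgeR 4.0.16 (R 4.3.3) by glmQLFit and glmQLFTest, with TMM scaling, filterByExpr and all 12 libraries in 1 fit, two-sided, with Benjamini-Hochberg adjustment over 23191 genes and a threshold of 0.05. The common biological coefficient of variation was 0.437. On simulated data for Taurine against Model, 83% of 4-fold and 98% of 8-fold changes among 200 changed genes were recovered, with 6 false calls among 23191 genes. The changed genes were drawn from all genes with a Model mean above 1 CPM. Several V segments named above lay below that level, and recovery was not measured for the immunoglobulin members. Shares of heavy-chain classes use FPKM, intervals use counts (exact, 95%), and V segment use was set to 900 counts by analytic rarefaction. DESeq2 1.42.0, limma 3.58.1 (voom with sample weights, and log2(FPKM + 1)), other scalings and filters, and leaving out libraries were tried as alternatives, and leaving out Model 1 and Model 2 was chosen after seeing the data.

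The members and the 15 gene lists (122 of 126 symbols matched) were chosen with earlier results of these data known. Named V segments were the 5 with most counts per chain, the leader of each library, the 3 with the smallest adjusted p in each direction of each comparison, and the genes next to the minimum. List genes were up to 3 per direction that passed, by p, and otherwise the 2 with the highest mean level, given here for the B cell and plasma cell lists. Genes outside this rule, Cd79a, Cd79b, Mzb1, Tnfrsf17, Xbp1, Rag1, Cxcl13 and the remaining called or DESeq2-called V segments, were picked after their values were seen. Ung and S1pr2 were added so that all genes of their list that rose are given. Another 4 list genes are not reported here and were left out of the lists' counts and medians.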

Additional observations from a re-analysis of the deposited data

How the results depend on the processing

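In Model against Control, 24 members were called, and 38 by DESeq2, 65 by voom, 70 by limma on log2(FPKM + 1), 51 with only the compared groups in the fit and 13 without Model 1 and Model 2. Leaving out each library in turn gave 11 to 36, with 13 without Control 1, 11 without Control 3, 12 without Model 2, 12 without Model 3 and 36 without Proline 3. The 24 were also called by DESeq2, voom and limma. DESeq2 called 6 members in Taurine against Model, 2 in Proline against Model and 23 in Taurine against Proline, where edgeR called 0 in each, and leaving out each library in turn gave 0 to 0, 0 to 0 and 0 to 7. The 7 were called without Proline 3. The cause was not tested.

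The log2 ratio of summed levels in Model against Control was −2.84 without Model 1 and Model 2, and −2.34 to −1.91 leaving out each library. It was −2.05 to −0.92 in Taurine against Model and −2.31 to −1.02 in Taurine against Proline. In Proline against Model it was −0.26 to 0.66 and changed sign, to −0.26, without Proline 2. The IgA share difference of Model and Control was −41.1 percentage points by counts, and −37.0 to −33.5 leaving out each library. The ranges were 20.9 to 37.7 for IgM, 5.004 to 22.3 for IgG and 2.05 to 5.79 for kappa, and −16.3 to −5.42 for the inverse Simpson number. For the constant genes and Jchain in Model against Control, 10 alternative values lost the call, 4 gained it, 237 kept their side of the threshold and size, and 1 changed sign (Ighg3, 0.10 without Model 1 and Model 2). At this depth 12 V segments had too few counts to be tested. No paired analysis was possible because the labels give no replicate numbers shared between groups.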
